A study of Mus musculus with 8 samples.

Results

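Superoxide and peroxide scavenging enzymes were followed through 10 genes, Sod1, Sod2, Sod3, Cat, Gpx1, Gpx3, Gpx4, Prdx1, Nqo1 and Txn1. They were found by matching the accession of each probe to RefSeq gene models, which gave 12 of the 56605 probes on the array and 10 of its 22911 named genes. Prdx1 had 3 probes and each of the others had 1. Whole retinas came from aged mice (46 to 55 weeks old) that were either homozygous Mrp4 knockout mice or wild-type. RNA from 4 samples of each genotype was hybridized to 1 one-color Agilent array per sample. The knockout line was on a C57BL/6J background and the methods name tissue from 3 mice without saying whether each sample was a pool. In what follows, null 1 to null 4 stand for the samples labelled Mrp4-null and WT 1 to WT 4 for wild-type. Nothing in the labels says that the 4 samples of a genotype were separate animals, so the p-values measure only the spread between these samples.

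Superoxide arises mainly as a by-product of mitochondrial respiration, which is intense in photoreceptors. Superoxide dismutases turn it into hydrogen peroxide, and catalase, glutathione peroxidases and peroxiredoxins then remove the peroxide. Catalase needs no reductant, whereas glutathione peroxidases draw mainly on glutathione and most peroxiredoxins on thioredoxin. Some of these enzymes work inside the cell, in the cytosol, mitochondria or peroxisomes, whereas SOD3 and GPX3 are secreted. Many of their genes can be induced by the transcription factor NRF2, which binds the antioxidant response element.

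Before the members, the arrays themselves are described. The share of probes detected well above background ran from 66.0% to 69.9%, no spot was saturated, and the 75th percentile of the signal over all probes lay between 497 and 786. The 6 rod markers had a mean normalized log2 signal of 16.68 to 16.79 on all 8 arrays. Abcc4, the gene for MRP4, had a processed signal of 1250 to 2186 under the Mrp4-null label and of 76.8 to 160 in wild-type (log2 fold change 3.92, adjusted p = 1.36e-05 from limma). The targeted gene was thus brighter under the knockout label. Which part of the gene is deleted, and whether this probe lies in it, is not given in the sources used here. A probe outside the deleted part would not check the labels, so whether this level bears on the genotype labels was not tested. Every direction below follows the labels as deposited. The Xist probe was well above background on 4 of 4 arrays labelled Mrp4-null and on 2 wild-type arrays, while probes of Y-linked genes were so on 3 wild-type arrays and on 0 labelled Mrp4-null. WT 1 had Xist without Y-linked signal, WT 2 had both, and WT 3 and WT 4 had Y-linked signal without Xist. Both signals on WT 2 are what tissue of both sexes would give. By these probes, sex differed largely along with genotype, so the part of sex in a genotype difference cannot be told apart. All arrays lay on a single slide, with each genotype in its own row, so row and genotype cannot be told apart.

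Over the 10 members, the 2 secreted enzymes Sod3 and Gpx3 stood higher under the Mrp4-null label, by 1.73-fold and 1.90-fold, and the other 8 had fold changes of 0.892 to 0.966. With a fold change of at least 1.5 and a Benjamini-Hochberg adjusted p under 0.05 as the rule, limma called 0 of the 10 members changed, against 0.545% of all 37085 retained probes (202 probes, with 0.256% higher and 0.289% lower under the Mrp4-null label). The local pooled error test that the methods name, run with the same adjustment, called 2, Sod3 and Gpx3, against 0.647% of all retained probes (240 of 37085). An unadjusted p under 0.05 was found for the same 2 members, where 6.46% of all probes had one. All 12 member probes were well above background on 8 of 8 arrays, so none was lost to the filter on dim probes. The median log2 fold change of the members was -0.08 (all retained probes, -0.0093), and the median size without regard to sign was 0.10 (all retained probes, 0.08). For 6 members, Sod1, Sod2, Gpx1, Gpx4, Prdx1 and Txn1, the whole 95% interval lay within 1.5-fold in either direction, for Prdx1 by its brightest probe and not by all 3.

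**Figure D1:**
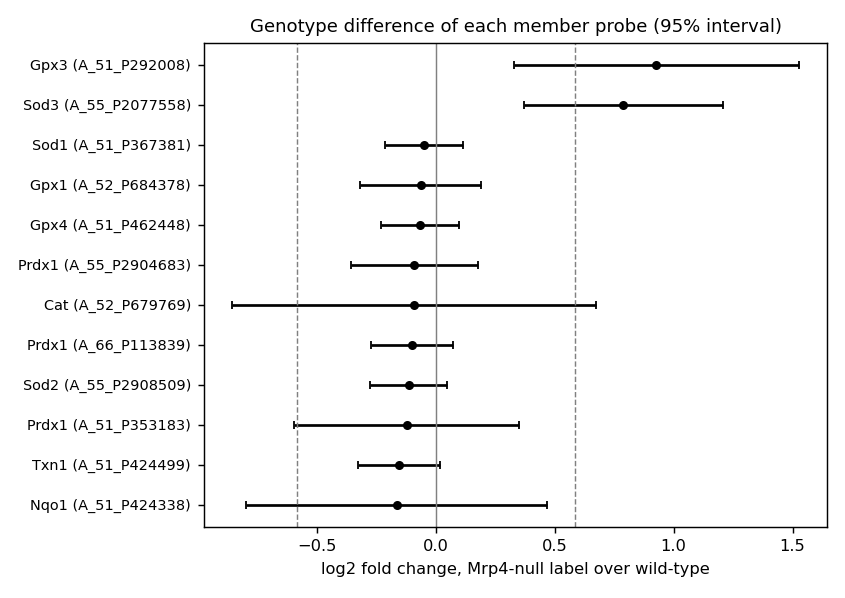
Log2 fold change of each of the 12 member probes, Mrp4-null label over wild-type (n = 4 arrays each), with limma's 95% interval as the bar. Dashed lines mark a 1.5-fold difference. The intervals of Gpx3 and Sod3 lie wholly above 0, and those of Cat and Nqo1 are the widest of the others.

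Sod3 is the extracellular superoxide dismutase, a secreted copper and zinc enzyme that binds to the matrix around cells and vessels. Its normalized log2 signal was 8.54, 8.81, 8.91 and 8.00 on null 1 to null 4 and 7.79, 7.80, 7.71 and 7.80 on WT 1 to WT 4. The groups did not overlap, although null 4 came close to wild-type. On the linear scale the processed signal ran from 280 to 544 under the Mrp4-null label and from 169 to 259 in wild-type. The log2 fold change was 0.79 (standard error 0.18, 95% interval 0.37 to 1.21), larger in size than that of 99.0% of retained probes. It was not called (adjusted p = 0.185 from limma), and the exact two-sided permutation test over arrays gave p = 0.0286, the smallest that 4 arrays against 4 allow. The genotypes also failed to overlap in 4.79% of all retained probes, and Sod3 was the only member of which this held. The call turned on 1 array. Without null 4, the log2 fold change was 0.97 and limma called the probe (adjusted p = 0.0141), whereas in the other 7 fits that left out an array it was 0.67 to 0.80 and was not called. By the local pooled error test, Sod3 was called (adjusted p = 0.0249).

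Gpx3 encodes the secreted glutathione peroxidase, a selenoenzyme that removes peroxides outside cells. The normalized log2 signal was 9.28, 9.75, 9.55 and 8.52 under the Mrp4-null label and 8.52, 8.60, 7.94 and 8.33 in wild-type. Null 4 fell among the wild-type arrays, as the lowest of its group just as for Sod3, and the other 3 lay above all of them. Processed signals were 407 to 834 and 199 to 454. The log2 fold change of 0.93 (standard error 0.26, 95% interval 0.33 to 1.53) exceeded in size that of 99.3% of retained probes. It missed the call (limma's adjusted p = 0.344, exact two-sided permutation test p = 0.0571). Leaving out null 4 raised it to 1.17, still not called (adjusted p = 0.0568 from limma), and the local pooled error test called it (adjusted p = 0.00157).

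Against WT 1 alone, which like the arrays labelled Mrp4-null showed Xist and no Y-linked signal, the mean under the Mrp4-null label was higher by 0.77 on the log2 scale for Sod3 and by 0.76 for Gpx3. All 4 arrays labelled Mrp4-null lay above that array for either gene. For Gpx3, null 4 was only just above it, at 8.524 against 8.521. Of the other members, Cat (0.21), Nqo1 (0.22), Prdx1 (0.06) and Gpx4 (0.013) were above WT 1 in the mean although below the mean of all wild-type arrays, and Sod1 (-0.017), Txn1 (-0.05), Gpx1 (-0.12) and Sod2 (-0.12) were below it. These values rest on a single wild-type array and were not tested.

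**Figure D2:**
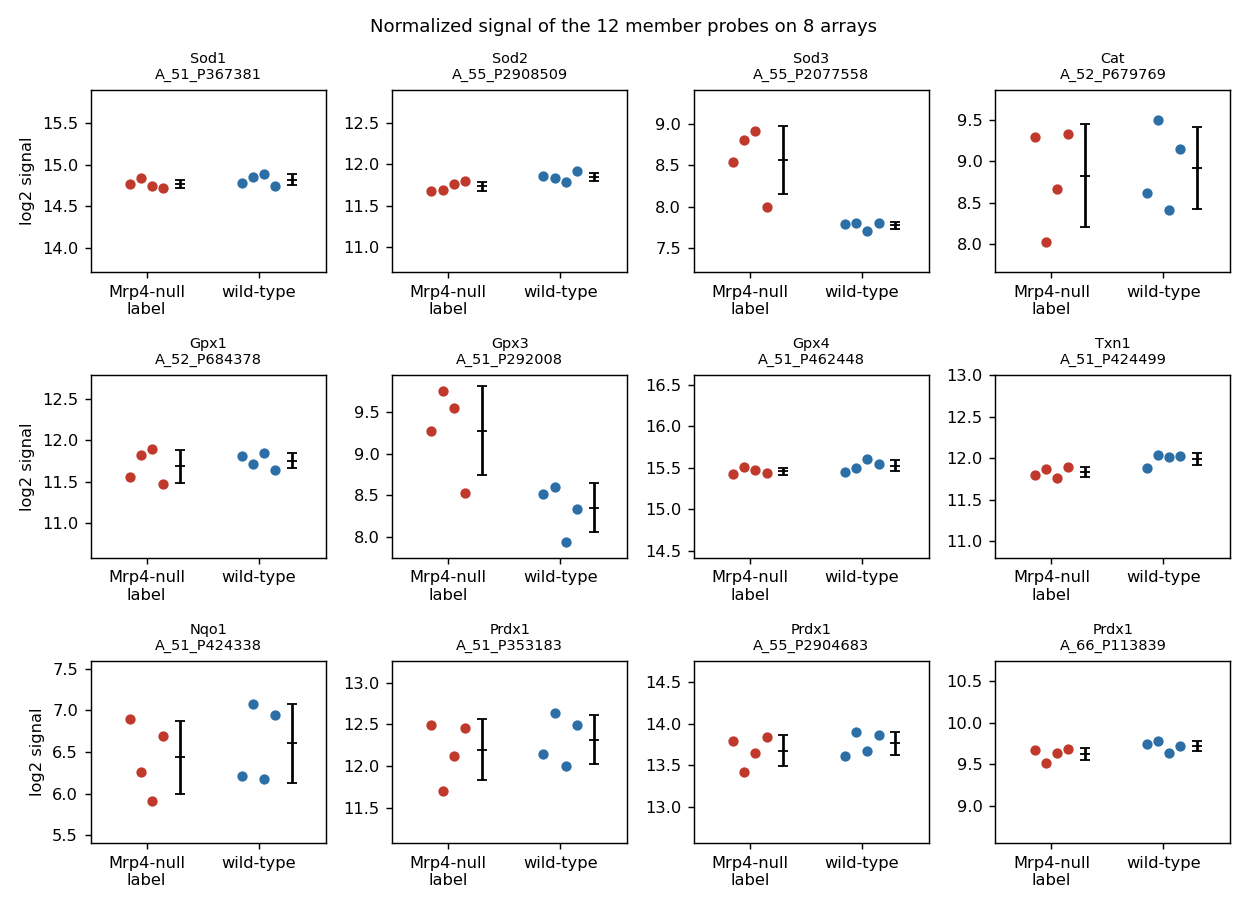
Normalized log2 signal of the 12 member probes on the 8 arrays. Each point is an array, red for the Mrp4-null label and blue for wild-type, the bar is the mean with its SD (n = 4), and every panel spans the same number of log2 units. Only the Sod3 groups do not overlap, and the arrays of Cat and Nqo1 spread widely within either genotype.

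Gpx3 had the widest range over the 8 arrays of all members, 1.81 on the log2 scale. Among the 16093 named genes, the 5 whose array-to-array pattern was most like it were Penk, F5, Plin4, Slc13a4 and Sod3. Likeness was taken as the root mean square difference of the deviations from each gene's own mean over 8 arrays, which was 0.16 to 0.20 for these genes and 0.62 for the median gene. Sod3 was thus among the most similar genes, at 0.20. Penk encodes the precursor of enkephalin peptides, F5 coagulation factor V, Plin4 a coat protein of lipid droplets and Slc13a4 a sulfate transporter. None of them was called, with log2 fold changes of 0.75 to 1.18 and adjusted p between 0.101 and 0.471 from limma. In Slc13a4, which had the largest of these values, null 1 to null 4 were at 9.10, 9.71, 9.64 and 8.79 and WT 1 to WT 4 at 8.21, 8.33, 7.67 and 8.31, without overlap. These genes were picked for their likeness to Gpx3, so their direction is no separate evidence.

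**Figure D3:**
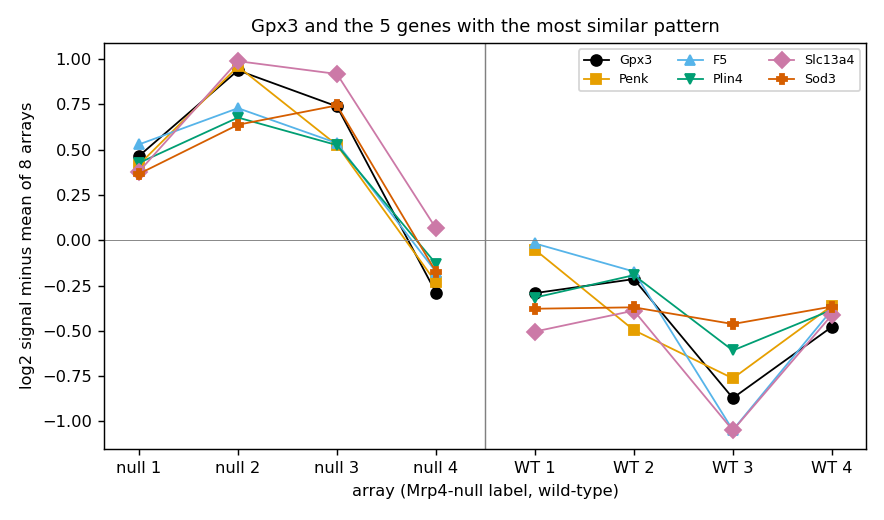
Deviation of the normalized log2 signal from the mean of 8 arrays, for Gpx3 and the 5 named genes most like it. The vertical line parts the arrays labelled Mrp4-null (null) from wild-type (WT), and the lines only join points of a gene, since arrays of a group have no order. Arrays null 1 to null 3 lie above 0 and all wild-type arrays below 0 for all 6 genes, and null 4 is the lowest of its group in each.

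In whole retina, a larger share of a cell type and more RNA per cell cannot be told apart. The mean log2 signal of lens markers (9 of 9 listed genes retained) was 6.12 to 8.71 under the Mrp4-null label and 7.50 to 10.02 in wild-type. Markers of pigment epithelium (4 of 5, without Lrat) were at 8.44 to 8.95 and 8.31 to 8.91, and those of pigment cells (5 of 5) at 6.21 to 7.09 and 6.001 to 6.75. Fibroblast markers (4 of 6, without Col3a1 and Lum), a list chosen after the values were seen, were at 6.87 to 7.06 and 6.85 to 6.96. Endothelial markers (6 of 6) were at 8.35 to 8.85 and 8.75 to 8.996, and blood markers (3 of 5, without Hbb-bs and Slc4a1) at 10.13 to 11.12 and 10.09 to 11.08. Mural cell markers (5 of 5), chosen likewise, were at 8.35 to 8.46 and 8.35 to 8.52. In each of these lists the ranges of the mean overlapped between genotypes. All 9 lens markers were nevertheless lower under the Mrp4-null label, with log2 fold changes of -2.44 to -0.94 and a median of -1.40. Of these, 3 had an unadjusted p under 0.05, Bfsp2, named after its values were seen, was without overlap by 1 of its 2 probes, and limma called 0. Bipolar cell markers (3 of 3) did not, at 13.48 to 13.64 under the Mrp4-null label and 13.26 to 13.43 in wild-type. Of the 4 fibroblast genes, Col1a2, also named after its values were seen, was higher by 0.66 on the log2 scale under the Mrp4-null label, without overlap but not called (limma's adjusted p = 0.428), and the other 3 lay below 0, with a median of -0.03 over the list. Their part in the levels of Sod3 and Gpx3 was not tested.

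The superoxide dismutases of the cell interior varied little between arrays. Sod1, the copper and zinc enzyme of the cytosol, was at 14.77, 14.84, 14.75 and 14.72 under the Mrp4-null label and at 14.79, 14.86, 14.89 and 14.74 in wild-type. All 8 arrays lay within 0.17 log2 units, and the fold change was 0.966 (95% interval 0.862 to 1.08, adjusted p = 1.00 from limma). Sod2, the manganese enzyme of mitochondria, was at 11.68, 11.69, 11.76 and 11.79 against 11.85, 11.83, 11.79 and 11.91. Null 4 alone lay above a wild-type value, that of WT 3, and the groups were close, with a fold change of 0.923 (95% interval 0.825 to 1.03). It was not called (adjusted p = 0.979 from limma, exact two-sided permutation test p = 0.0571). Ccs, the chaperone that loads copper into SOD1, had a log2 fold change of -0.08 (95% interval -0.29 to 0.13) and was not called.

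Of the peroxide-removing selenoenzymes, Gpx4 reduces lipid peroxides within membranes and Gpx1 reduces hydrogen peroxide in the cytosol and mitochondria. Gpx4 was at 15.42, 15.51, 15.47 and 15.43 under the Mrp4-null label and at 15.45, 15.50, 15.61 and 15.55 in wild-type, a fold change of 0.955 (95% interval 0.853 to 1.07). With processed signals of 38732 to 54728 it gave a bright spot on every array, and none was flagged as saturated. Gpx1 was at 11.56, 11.82, 11.89 and 11.48 against 11.81, 11.72, 11.84 and 11.64. The arrays of the genotypes were interleaved, and the fold change was 0.956 (95% interval 0.802 to 1.14). Adjusted p was 1.00 for either gene (limma).

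Txn1 encodes cytosolic thioredoxin, the electron donor of the peroxiredoxins. It was at 11.80, 11.88, 11.76 and 11.90 under the Mrp4-null label, whereas wild-type was at 11.88, 12.04, 12.01 and 12.03. Only WT 1 reached down into the other group, and the fold change of 0.898 (95% interval 0.798 to 1.01) was not called (adjusted p = 0.848 from limma, exact two-sided permutation test p = 0.0571).

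Prdx1, a cytosolic peroxiredoxin, was read by 3 probes, which gave similar differences between genotypes but unlike spreads. The probe with the highest signal, A_55_P2904683, was at 13.79, 13.42, 13.65 and 13.85 under the Mrp4-null label and at 13.62, 13.90, 13.68 and 13.87 in wild-type, a fold change of 0.940 (95% interval 0.781 to 1.13). For A_51_P353183 the fold change was 0.918 (95% interval 0.662 to 1.27) and for A_66_P113839 it was 0.934 (95% interval 0.828 to 1.05). None was called (adjusted p = 1.00 from limma for each). Over the 8 arrays, A_51_P353183 ranged over 0.93 log2 units, A_55_P2904683 over 0.48 and A_66_P113839 over 0.27, although all carry the same accession. Null 2 was the lowest of its group in all 3 probes, and WT 2 was the highest of its own.

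Cat encodes catalase, the hydrogen peroxide-degrading enzyme of peroxisomes, and had the largest spread within genotypes among the members, with an SD of 0.56 (97.1% of retained probes had a lower one). It was at 9.30, 8.03, 8.66 and 9.33 under the Mrp4-null label and at 8.62, 9.50, 8.42 and 9.15 in wild-type. Both genotypes had bright and dim arrays for this probe, lowest on null 2 and WT 3, and the processed signal varied from 208 to 873. The fold change was 0.938, with an interval so wide (0.552 to 1.59) that neither a rise nor a fall by 1.5-fold can be set aside (adjusted p = 1.00 from limma). Its sign turned when single arrays were left out, from -0.26 to 0.18 on the log2 scale, the upper value without null 2. It was also positive, 0.10, without WT 2. With the leading component of the spread within genotypes in the fit, it was -0.09 (standard error 0.068 in place of 0.34). That component was drawn from these same arrays, and the setting was chosen with the values known.

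Nqo1, a quinone reductase of the cytosol and a classic target of NRF2, was the dimmest member, with processed signals of 59.8 to 154. It was at 6.89, 6.26, 5.91 and 6.69 under the Mrp4-null label and at 6.22, 7.08, 6.17 and 6.95 in wild-type. The groups covered almost the same range, and the fold change of 0.892 (95% interval 0.575 to 1.38) was not called (adjusted p = 1.00 from limma). Without null 3 the log2 fold change was 0.011 in place of -0.16.

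Cat, Nqo1 and the 3 probes of Prdx1 shared part of their order over the arrays. WT 2 was the highest wild-type array for all 5 probes, and WT 3 was the lowest for Cat, Nqo1 and 2 of the Prdx1 probes. Null 1 and null 4 were above the mean of their group and null 2 below it for all 5. Gpx1 ran the other way, with WT 3 as its highest wild-type array and null 4 as the lowest array of all. Null 2 and WT 3 also had the lowest 75th percentiles of signal, 497 and 514, against 566 to 786 on the others. Without these 2 arrays together, a choice made after the values were seen, the log2 fold change was 0.0060 for Cat, 0.69 for Sod3 and 0.64 for Gpx3, and limma called 0 members. A similar order over the arrays was not limited to these members. The leading component of the spread within genotypes, over all retained probes, was 0.34, -0.63, -0.10 and 0.40 on null 1 to null 4. On WT 1 to WT 4 it was -0.12, 0.35, -0.39 and 0.15, and its sign is arbitrary. The part of signal strength in this shared order was not tested.

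**Figure D4:**
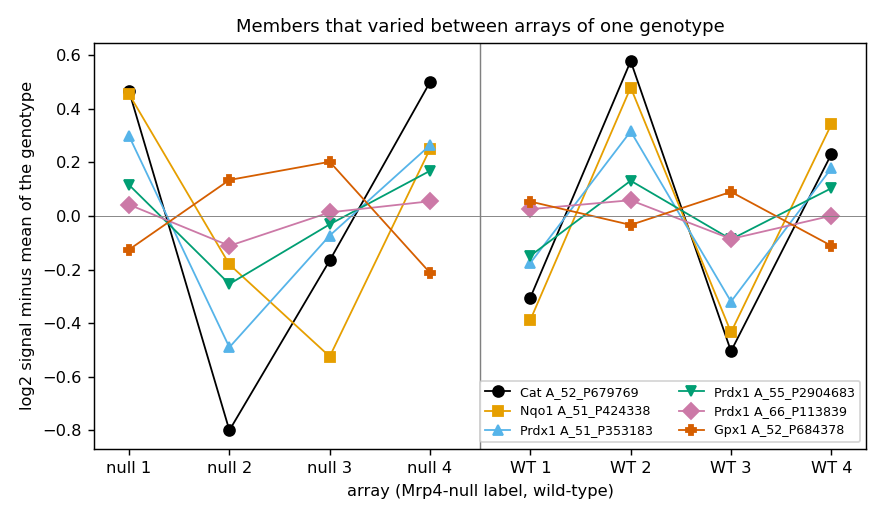
Deviation of the normalized log2 signal from the mean of the array's own genotype, for Cat, Nqo1, the 3 Prdx1 probes and Gpx1. The vertical line parts the arrays labelled Mrp4-null (null) from wild-type (WT), and lines only join points of a probe. Cat spans -0.80 to 0.58, the Prdx1 probes follow it to unlike degrees, and Gpx1 runs opposite.

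Because several members can be induced by NRF2, the 250 bases before the start of each gene (RefSeq, GRCm38.p6) were searched on both strands for TGACNNNGC, the core of the antioxidant response element. Windows were at hand for 9 of the 10 members, all but Sod3. The motif was found in 2 of the 12 member windows, those of Sod1 and Prdx1, and in 10.2% of all 32851 windows. Gpx4 alone had 4 of the 12 windows, all without a match, so by gene it was 2 of 9. Sod1 and Prdx1 are shown for their matches and Gpx3, which has none, for its difference between genotypes. Capitals mark the match, which reads TGACCACGC in Sod1 and TGACTCAGC in Prdx1 on the opposite strand. In Prdx1 its first bases, TGACTCA, are also a binding motif of AP-1. The windows lie at chr16:90220512-90220761, chr4:116685349-116685598 and chr11:54902604-54902853, all on the plus strand.
Sod1: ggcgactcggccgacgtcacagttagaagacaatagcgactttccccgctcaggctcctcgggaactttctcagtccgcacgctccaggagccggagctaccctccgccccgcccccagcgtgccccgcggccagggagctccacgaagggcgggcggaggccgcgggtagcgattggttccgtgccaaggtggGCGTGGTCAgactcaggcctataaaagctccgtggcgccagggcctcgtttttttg
Prdx1: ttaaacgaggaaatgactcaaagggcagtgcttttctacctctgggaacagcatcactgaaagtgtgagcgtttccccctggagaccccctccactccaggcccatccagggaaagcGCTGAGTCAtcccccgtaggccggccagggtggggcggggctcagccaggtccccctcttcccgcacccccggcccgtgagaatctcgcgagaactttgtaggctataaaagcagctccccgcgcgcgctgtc
Gpx3: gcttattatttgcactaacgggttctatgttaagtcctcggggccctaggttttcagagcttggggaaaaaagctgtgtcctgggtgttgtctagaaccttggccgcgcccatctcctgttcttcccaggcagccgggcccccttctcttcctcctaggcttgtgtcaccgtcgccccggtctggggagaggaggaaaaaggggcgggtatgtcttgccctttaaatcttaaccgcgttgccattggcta
A match is a description of the letters only, and its absence says nothing of a site elsewhere, as in Nqo1, whose window had no match. Neither gene with a match was called.

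Other genes of the same chemistry were taken from 8 lists by function, with 62 of 71 genes retained. Limma called 0 of the 62 changed, against 0.545% of all retained probes, and the local pooled error test called 0 as well. An unadjusted p under 0.05 was found for 7 of the 62, where 1062 of all 16093 named genes and 6.46% of all probes had one. The median log2 fold change of the 62 was -0.0014. Not retained, or without a named probe, were Gpx5, Gpx6, Cybb, Rac2, Nox1, Nox3, Nox4, Duox1 and Duox2, the last 7 from the list of producers of superoxide and peroxide.

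The nearest to a call was Prdx2, another cytosolic peroxiredoxin. It was at 14.06, 14.13, 14.08 and 13.99 under the Mrp4-null label and at 13.58, 13.57, 13.66 and 13.52 in wild-type, with no overlap. The log2 fold change of 0.49 (95% interval 0.32 to 0.65) had an adjusted p of 0.0243 from limma but was below the 1.5-fold limit. The adjusted p was above 0.05 in each of the 8 fits that left out an array (0.0537 to 0.125), with the 75th percentile shift (0.0822), by the local pooled error test (0.0714) and with the sample number as a block (0.297). It was under 0.05 with normexp (0.00587), without a filter on dim probes (0.0195), with only probes above background on all arrays (0.0249), with outlier spots kept or the deposited table (0.0245 and 0.0246), and with an intensity trend and robust variances (0.00323). Without null 2 and WT 3 it was 0.0861, and with the leading within-genotype component in the fit 0.00386, both settings chosen with the values known. A second probe of Prdx2 gave 0.38 (adjusted p = 0.0631 from limma). Prdx2 lies on chromosome 8, where 35 of 837 tested genes had a called probe (105 of 16093 over all chromosomes, 0.652%), and the nearest of these, Rnaseh2a, had no tested gene between it and Prdx2. Rnaseh2a, named after its values were seen, was higher as well, at 0.63 (adjusted p = 0.0177 from limma) by the called probe and at 0.43 by another. Nqo1 is on the same chromosome, with 97 tested genes between it and the nearest called one. Prdx1 and Txn1 are on chromosome 4, where 23 of 1015 tested genes had a called probe, with 183 and 416 between. Cat and Sod3 were the members nearest to a called gene, with 25 and 38 tested genes between, on chromosomes with 1 called of 1266 and 6 of 999. For Sod2, Gpx1 and Gpx4 it was 86 to 185, and the chromosomes of Sod1 and Gpx3 had 0 called.

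Prdx4, the peroxiredoxin of the endoplasmic reticulum, was at 9.12, 8.997, 9.05 and 9.10 against 9.19, 9.43, 9.43 and 9.36 in wild-type. The groups did not overlap, and the log2 fold change of -0.29 was not called (adjusted p = 0.358 from limma). Prdx4 lies on the X chromosome. WT 1, the wild-type array with Xist and no Y-linked signal, was the lowest of its group, at 9.19. The part of sex in this difference was not tested. The other 3 peroxiredoxins were within 0.10 of 0, and of the glutathione peroxidases that are not members, 3 were retained and lay between -0.05 and 0.11, with Gpx7 at 0.11 and Gpx8 at -0.05. In the thioredoxin system all 10 genes were retained and lay between -0.13 and 0.07. The ends of that list at its lower side were Nxnl2, a thioredoxin-like gene of photoreceptors, at -0.13, and Srxn1, which repairs overoxidized peroxiredoxins, at -0.12. Of the 8 glutaredoxin and methionine sulfoxide reductase genes, Glrx was at -0.42 (adjusted p = 0.935 from limma) and Glrx5 at -0.16.

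All 19 genes of the NRF2 list were retained, with a median log2 fold change of -0.00094. Slc7a11, the cystine importer, was at 5.62, 5.73, 6.69 and 5.81 under the Mrp4-null label and at 5.49, 5.59, 5.42 and 5.06 in wild-type. The groups did not overlap and null 3 stood above all others, but the log2 fold change of 0.57 was not called (adjusted p = 0.707 from limma). Maff, a small MAF partner of NRF2, had -0.54 (adjusted p = 0.643 from limma). Hmox1, the inducible heme oxygenase and named after its values were seen, was at 9.77 on null 3 and at 8.51 to 8.65 on the other 3 with that label. The 8 genes of selenoprotein synthesis and supply, on which the glutathione peroxidases depend, lay between -0.09 and 0.18 by the representing probe, with Sepsecs at 0.18 and Selenop at 0.12. The other 2 probes of Trnau1ap, named after its values were seen, were without overlap and lower than its representing probe (-0.09), at -0.42 (adjusted p = 0.0597 from limma) and -0.24 (0.514), and not called.

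Among producers of superoxide and peroxide, 8 of 15 genes were retained, with a median log2 fold change of 0.32 (6 above 0 and 2 below), and 0 were called. Xdh, xanthine dehydrogenase, was at 5.90, 5.51, 6.28 and 5.84 under the Mrp4-null label and at 4.55, 5.32, 4.75 and 5.52 in wild-type. The groups overlapped only in that WT 4 lay just above null 2, and the log2 fold change of 0.84 was not called (adjusted p = 0.346 from limma). Ncf1, a cytosolic subunit of the phagocyte oxidase, was at 0.64 (adjusted p = 0.711 from limma), with 5.70 on null 3 and 4.52 to 4.75 on the other 3. Its other probe gave 0.55 (adjusted p = 0.508 from limma), and there null 3, at 4.87, did not stand apart from the other 3, at 4.22 to 4.85. Ncf4, another subunit of that oxidase and named after its values were seen, was at 0.59 and not called either. Null 3 alone was high for Ncf4, at 7.11, against 4.69 to 5.17 on the other null arrays and 4.72 to 5.20 in wild-type. Myeloid markers (4 of 5, without Ptprc) had a mean log2 signal of 9.66 on that array and of 8.58 to 8.85 on the other 7. Their part in the values of Ncf1, Ncf4, Hmox1 and Slc7a11 was not tested.

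**Figure D5:**
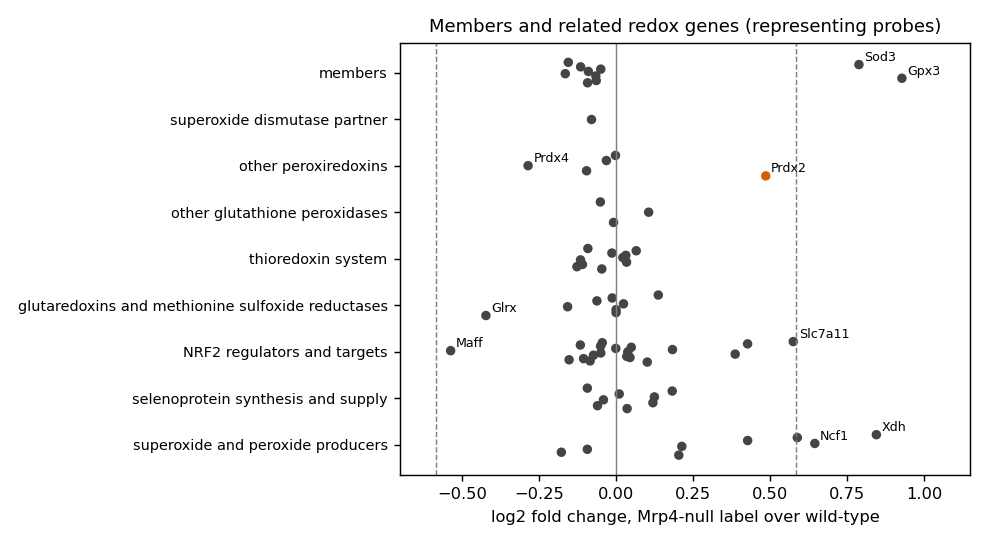
Log2 fold change (Mrp4-null label over wild-type) of the representing probe of the 10 members and the 62 related genes, by list. Orange marks an adjusted p under 0.05 (Prdx2) and dashed lines a 1.5-fold difference. Gpx3, Sod3, Xdh, Ncf1 and, just past it, Ncf4 lie beyond the upper line without passing the test.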

How the data were processed

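Per the labels, total RNA of 8 retina samples was labelled with Cy3 and hybridized to 1 array each. The authors deposited scanner output from Agilent Feature Extraction 11.0.1.1, in which signal intensity was corrected for background and spatial trend by the scanner software and was not normalized between arrays, and a table of intensity values that equals the mean processed signal per probe. The members and lists were chosen with earlier results of these data known.

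Control and outlier spots (78 to 143 per array) were left out, and log2 processed signals were averaged per probe. A probe was retained where 1 genotype had it well above background throughout (at least 3 arrays measured, and 2 in the other), 37085 of 56605, and quantile normalized. Accessions named 32994 probes (58.3%) through RefSeq gene models of GRCm38.p6. The probe with the highest mean stood for a gene in counts. The fits used limma 3.58.1 in R 4.3.3, and figures matplotlib 3.10.9, and the scripts were tested on simulated data. Genotypes were compared with lmFit and eBayes on all 8 arrays, with Benjamini-Hochberg adjustment over all retained probes, and single probes with exact permutation tests. The methods' local pooled error test was written anew, with 100 bins and a spline of 10 degrees of freedom. Its log2 fold change is a difference of medians, whereas limma's is a difference of means. The genes named are the members, Abcc4, in each related list the 2 with the largest log2 fold change, and the 5 most like the member of widest range. Bfsp2, Col1a2, Hmox1, Ncf4, Rnaseh2a and Trnau1ap were named outside this rule, after their values were seen. Alternatives were the 75th percentile shift, normexp (offset 50), other filters, outlier spots kept, the deposited table, an intensity trend with robust variances, a block for the sample number, and each array left out. Fibroblast and mural cell lists and 4 further settings were added after the values were seen. The number of arrays limits the precision.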

Additional observations from a re-analysis of the deposited data

Results flagged for a closer look

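Members, named genes, marker lists and the signal percentile were searched, within each genotype, for a single array that stood apart. Of 118 sets of 4 arrays, 5 had an array whose distance to its neighbour, as a share of the full range, passed Dixon's 95% limit, where chance gives about 1 in 20. For Sod3 in wild-type the ratio was 0.877, with WT 3 at 7.71 and the others at 7.79 to 7.80 on the log2 scale. For Txn1 in wild-type it was 0.838, with WT 1 at 11.88 and the others at 12.01 to 12.04. Hmox1 was at 9.77 on null 3 and at 8.51 to 8.65 on the others with that label (ratio 0.894). Hmox1, Bfsp2, Col1a2, Ncf4, Rnaseh2a and Trnau1ap entered this search after their values were seen, so the comparison with chance does not hold for them. The mean of the blood markers was 11.08 on WT 1 and 10.09 to 10.22 on the other wild-type arrays (ratio 0.868). The mean of the endothelial markers was 8.35 on null 2 and 8.79 to 8.85 on the others with that label (ratio 0.882).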

How the results depend on the processing

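Over 19 alternatives, Sod1, Sod2, Gpx4, Prdx1 and Txn1 kept their direction and were never called. Sod3 and Gpx3 kept theirs, at 0.67 to 0.97 and 0.64 to 1.17 on the log2 scale. The count of members called was 0 in limma's fits with all arrays, 2 by the local pooled error test, and 0 to 1 with an array left out. For Cat the log2 fold change turned to 0.095 by the local pooled error test, which compares medians in place of means. It was 0.0060 without null 2 and WT 3, and ran from -0.26 to 0.18 with an array left out. With an array left out, Gpx1 ran from -0.13 to 0.0069, the latter without null 4, and Nqo1 from -0.32 to 0.011. By adjusted p alone, also chosen with the values known, 1 related gene passed, Prdx2. The count over all 37085 probes, 202 by limma, was 240 by the local pooled error test, 117 to 183 with an array left out, 124 without both arrays named above, and 305 when the leading within-genotype component entered the fit, the last 2 being choices made with the values known. With the sample number as a replicate block it was 71. After the mean of each genotype was taken off every probe, same-numbered arrays correlated at -0.69 to 0.41. Of the 4 arrays labelled Mrp4-null, 0 correlated best with the wild-type array of their own number. With so few arrays, these values cannot decide whether the numbers mark a pairing. The block called 0 members. The cause of these shifts was not tested. Fits that left arrays out also had fewer arrays.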
